A study of Mus musculus with 8 samples.

Results

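RNA levels of 42 genes of S phase and mitosis were followed in tail epidermis of mice with 2 genotypes of Ppp1r8, the gene for NIPP1, a nuclear protein that directs the phosphatase PP1. The 42 genes were taken by name from a list. They comprised 17 genes of G1/S and DNA replication, 23 genes of G2 and mitosis, and the D cyclins Ccnd1 and Ccnd2. All 42 were found among 46983 gene identifiers, and all 42 were among the 15638 genes with enough counts to be tested. The lowest count of any of them in a library was 77, for Cdc6.

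The 8 mice were 8 weeks old and carried the transgene Tg(KRT14-cre)1Amc/J with the Ppp1r8 alleles written as Ppp1r8tm1Ave and Ppp1r8tm1.1Itl, with 1 library per mouse. The 4 CTR mice had the genotype K14-Cre/+ Ppp1r8 fl/+, so they carried Cre and 1 floxed allele. The 4 SKO mice had the genotype K14-Cre/+ Ppp1r8 fl/-. All 8 mice thus carried Cre and a floxed allele, and no group without Cre was compared. The K14 promoter drives Cre in basal keratinocytes, so that their descendants carry the deletion too, while cells of other lineages in the sheet would keep the floxed allele. By these genotypes, keratinocytes with the deletion would keep the + allele in CTR and no intact allele in SKO. Cells of other lineages differ between the groups too, with the + allele in CTR and the - allele in SKO beside the floxed allele. The labels gave neither sex nor litter. The p-values set the difference between the groups against the spread between these mice. CTR and SKO libraries of the same number come from mice with neighbouring identifiers, which the labels do not tie to a litter. A fit with these neighbours as pairs, chosen after seeing the data, is given where it changes a call.

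Dividing cells of the epidermis lie mainly in its basal layer and in the hair follicle. In G1, D cyclins with CDK4 and CDK6 phosphorylate the retinoblastoma proteins, which frees E2F factors to switch on genes for licensing and copying DNA. Genes of G2 and mitosis are held off in resting cells by the DREAM complex, which contacts a promoter element called CHR, and are switched on later by B-MYB and FOXM1, often with the CCAAT-binding factor NF-Y.

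The promoters of the genes described here carry these letters in differing shares. RefSeq windows of 300 bases (250 before to 50 after the start, GRCm38.p6) were found for 32 of the 42 genes, 34 windows in all. Ccnd1, Ccnd2, Ccne2, Ccna2, Gins2, Mcm4, Aurkb, Tpx2, Foxm1 and Kif20a had no entry. E2F-type letters (TTTCCCGC, TTTCGCGC, TTTGCCGC or TTTGGCGC, either strand) stood in 7 of 16 windows of S phase genes (43.8%), in 1 of 18 windows of mitosis genes (5.56%) and in 2.26% of all 32851 windows. CHR-type letters (TTTGAA or TTCGAA, either strand) stood in 2 of 16 windows of S phase genes (12.5%), in 14 of 18 windows of mitosis genes (77.8%) and in 19.2% of all windows. CCAAT, on either strand, stood in 11 of 16 windows (68.8%), 16 of 18 windows (88.9%) and 37.4% of all windows, in the same order. A match of letters is a description and not a binding site. The 5 stretches below are the 150 bases before the RefSeq start, 5′ to 3′ on the strand of the gene, with E2F-type, CHR-type and CCAAT letters in capitals. They are shown because these genes carry the largest values below or stand for their class. Mcm6 (chr1:128359706-128359855, minus strand) has E2F-type letters and CCAAT. Mki67 (chr7:135716380-135716529, minus strand), Kif11 (chr19:37376232-37376381, plus strand) and Bub1 (chr2:127831860-127832009, minus strand) have CHR-type letters and CCAAT, and Cdk1 (chr10:69352913-69353062, minus strand) has all 3. The CHR letters of Bub1 begin at base 15 after the start and are outside its stretch. Letters of different motifs overlap in none of the 5 stretches, whereas in Mcm6 an E2F-type match on each strand shares bases with the other.
Mcm6: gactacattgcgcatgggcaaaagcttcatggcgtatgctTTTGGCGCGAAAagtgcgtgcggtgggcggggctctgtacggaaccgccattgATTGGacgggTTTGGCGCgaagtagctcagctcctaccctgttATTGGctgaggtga
Cdk1: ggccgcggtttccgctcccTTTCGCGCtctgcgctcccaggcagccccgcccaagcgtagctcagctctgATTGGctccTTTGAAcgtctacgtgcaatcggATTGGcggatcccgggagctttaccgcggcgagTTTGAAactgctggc
Bub1: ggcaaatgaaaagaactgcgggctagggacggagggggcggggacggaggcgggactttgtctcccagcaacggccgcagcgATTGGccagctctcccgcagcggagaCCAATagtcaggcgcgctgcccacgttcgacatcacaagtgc
Kif11: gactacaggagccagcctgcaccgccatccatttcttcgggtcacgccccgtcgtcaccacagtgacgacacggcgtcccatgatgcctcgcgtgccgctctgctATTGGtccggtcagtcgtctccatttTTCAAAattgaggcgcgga
Mki67: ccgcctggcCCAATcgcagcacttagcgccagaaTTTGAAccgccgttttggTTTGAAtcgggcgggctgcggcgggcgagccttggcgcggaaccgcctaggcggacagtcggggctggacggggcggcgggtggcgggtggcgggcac

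Library totals were 16696212 to 21571935 counts. Across all genes tested, 3700 of 15638 (23.7%) passed the edgeR quasi-likelihood test at a Benjamini-Hochberg adjusted p under 0.05, of which 1792 (11.5%) were higher and 1908 (12.2%) lower in SKO. The basal keratinocyte keratin gene Krt5 stood at 8793 ± 678 in CTR and 8342 ± 209 in SKO, in counts scaled to a common library size (CPM) (mean ± SD, n = 4 per group, as for all such values). Krt5 did not pass (adjusted p = 0.552), but 4 of the 10 basal keratinocyte genes examined were lower in SKO, namely Itgb4, Krt15, Col17a1 and Itga6. The gene-level count of Ppp1r8 was 37.9 ± 3.58 CPM in CTR and 36.4 ± 8.00 in SKO (adjusted p = 0.789). It sums the whole gene and does not check the deletion.

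Of the 42 genes, 3 (7.14%) passed this test, beside the 23.7% over all genes. The helicase subunit Mcm6 and the checkpoint kinase gene Bub1 were higher in SKO (2 of 42, beside 11.5%), and the cyclin gene Ccnd1 was lower (1 of 42, beside 12.2%). With neighbouring mice as pairs, 6 of the 42 passed, these 3 and Cdk1, Kif11 and Ccnd2, beside 27.6% over all genes. None of the 3 estimates reached 1.5-fold. For 32 of 42 genes (76.2%) the 95% interval of the difference lay wholly inside 1.5-fold in either direction, against 71.7% of the 11165 tested genes in the same range of mean CPM. The lowest bound of any interval was -0.63 for Ccnd1 and the highest 0.76 for Ccnd2 on the log2 scale, so a change of 2-fold lay outside all 42 intervals. These are bulk libraries, in which a change in the share of cycling cells and a change in these RNAs per cycling cell cannot be told apart. CTR 4 and SKO 4 were the highest library of their group in 30 and 25 of the 42 genes, and several calls near the threshold changed when a library was left out. Xist and markers of hair follicle, suprabasal and immune cells also moved with the groups, with sums of 8 hair shaft keratins of 2896 to 5520 CPM in CTR and 107 to 1313 in SKO.

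**Figure D1:**
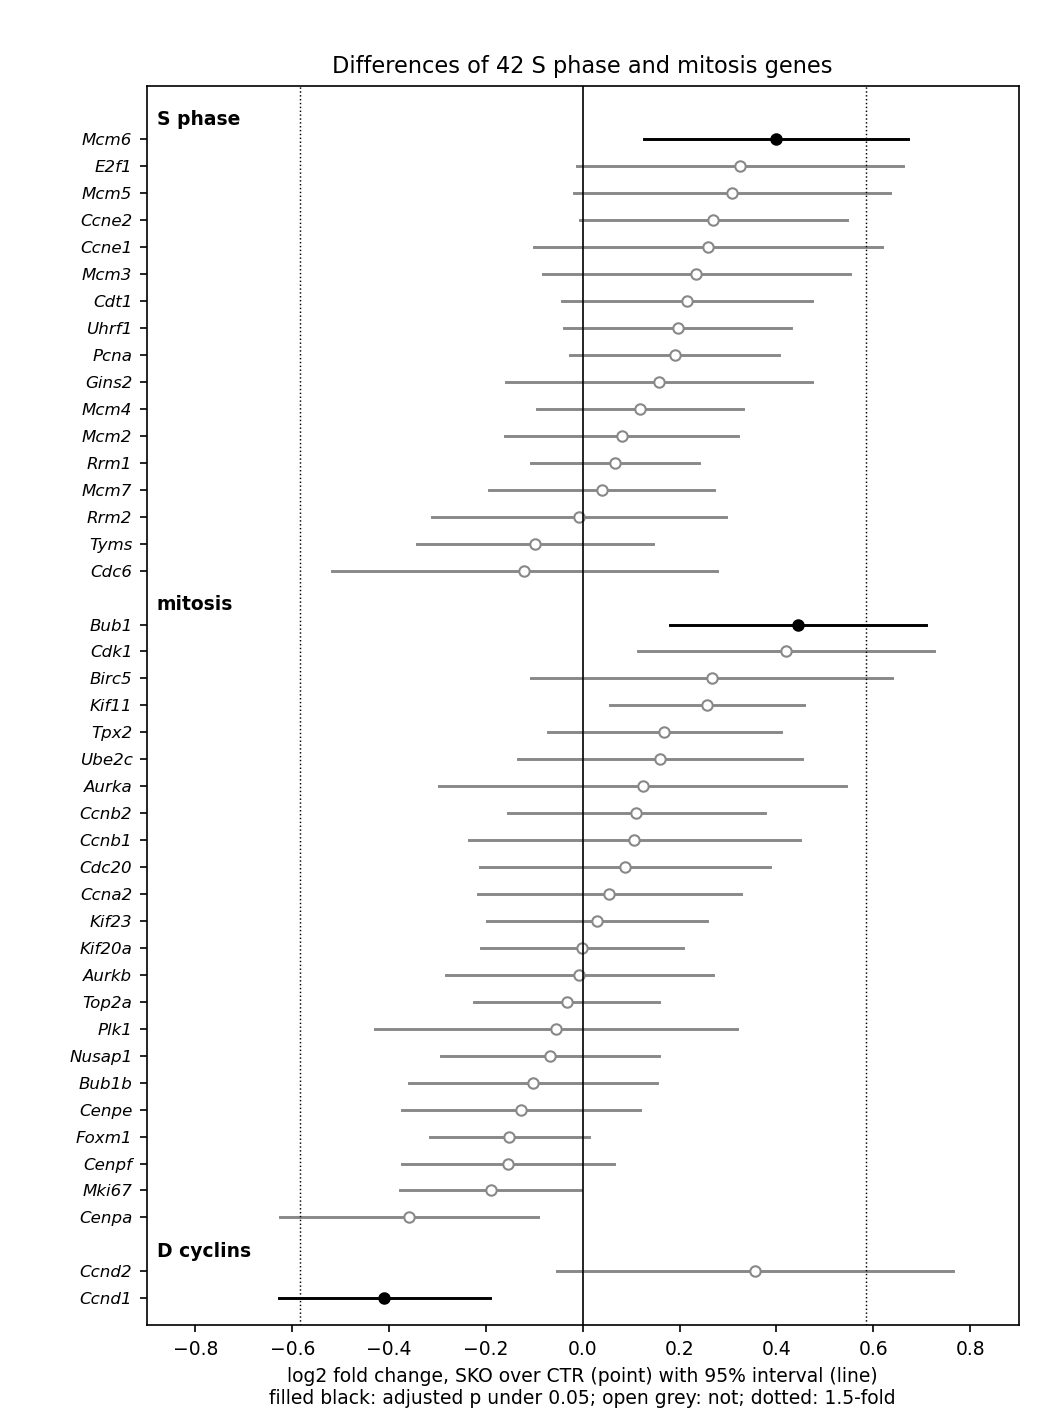
Log2 fold change of each of the 42 genes, SKO over CTR, on the x axis, with its 95% interval as a line. Filled black points are the 3 genes with an adjusted p under 0.05 (Mcm6, Bub1 and Ccnd1), open grey points the other genes, and dotted lines mark 1.5-fold. S phase genes lie mostly to the right of 0, and mitosis genes on both sides.

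Among the 17 genes of S phase, 14 had a positive log2 fold change (82.4%, beside 49.6% of all genes tested). Only 1 passed the test (5.88%, beside 23.7%), and the median was 0.19 against -0.003 over all genes tested. The 6 genes of the MCM2 to MCM7 ring, the helicase that unwinds DNA at the fork, all had positive values, with a median of 0.18. Of the 6, 1 passed (16.7%, beside 23.7%). Mcm6 (ENSMUSG00000026355.11, GRCm38 chromosome 1, 128331590 to 128359664) stood at 57.9, 54.8, 59.1 and 82.0 CPM in CTR 1 to 4 and at 82.5, 90.9, 76.6 and 84.8 in SKO 1 to 4. The SKO libraries lay close together, and CTR 4 lay among them, so the groups overlapped. The means were 63.4 ± 12.5 and 83.7 ± 5.93 CPM, a rise of 1.32-fold (log2 0.40, SE 0.12, adjusted p = 0.0402). This call was lost without any 1 of CTR 1, CTR 2, CTR 3, SKO 1, SKO 2 or SKO 4 (adjusted p 0.0606 to 0.104).

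CTR 4 was the highest CTR library in the other 5 MCM genes too. Mcm5 was at 42.7, 40.3, 46.3 and 65.8 CPM in CTR 1 to 4 and at 58.8, 63.5, 53.3 and 66.2 in SKO 1 to 4 (log2 0.31, SE 0.15, adjusted p = 0.153). Mcm3 was at 31.8, 29.5, 36.4 and 48.6 CPM in CTR and at 41.99, 45.5, 39.5 and 45.3 in SKO (log2 0.23, SE 0.14, adjusted p = 0.257). In both genes CTR 4 was above at least 3 of the 4 SKO libraries, and the other 3 CTR libraries lay below all SKO libraries. Without CTR 4, Mcm3, Mcm5 and the G1/S activator E2f1 passed the test as well (adjusted p 0.0223, 0.0109 and 0.0483). Mcm4, Mcm2 and Mcm7 had log2 values of 0.12, 0.08 and 0.04.

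None of Cdt1, Cdc6 and Gins2, which load the MCM ring on origins or complete it there, passed the test. Cdt1, which brings the ring to the origin, was at 18.3 ± 1.28 CPM in CTR and 21.3 ± 3.17 in SKO (log2 0.22, adjusted p = 0.203). Cdc6, its partner in loading, was at 5.16 ± 0.565 and 4.74 ± 1.09 CPM (log2 -0.12, adjusted p = 0.653). Gins2, a subunit of the active helicase, had a log2 value of 0.16, but 67.3% of its exon bases overlap Gse1 on the opposite strand, and the strand setting of the counting is not given in the sources used here.

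Genes that supply the fork and its nucleotides did not pass the test either. Pcna, the sliding clamp of the polymerases, was at 35.3, 29.6, 38.1 and 37.6 CPM in CTR 1 to 4 and at 40.6, 41.5, 35.8 and 42.6 in SKO 1 to 4 (log2 0.19, SE 0.10, adjusted p = 0.182). Its groups overlapped through SKO 3, the lowest SKO library. The ribonucleotide reductase subunits gave log2 values of 0.07 for Rrm1 and -0.01 for Rrm2, with intervals of -0.11 to 0.24 and -0.31 to 0.30. Tyms, which makes thymidylate, had -0.10. Uhrf1, which reads hemimethylated DNA behind the fork, was at 41.2 ± 5.24 CPM in CTR and 47.2 ± 4.49 in SKO (log2 0.20, adjusted p = 0.202).

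E2f1, itself an E2F target, was at 9.17, 10.2, 11.1 and 13.98 CPM in CTR 1 to 4 and at 13.2, 15.8, 11.6 and 15.1 in SKO 1 to 4 (log2 0.32, SE 0.15, adjusted p = 0.145). Here too CTR 4 lay inside the SKO range. The E-type cyclins, partners of CDK2 at the start of S phase, had log2 values of 0.26 for Ccne1 and 0.27 for Ccne2, with adjusted p of 0.271 and 0.14. CTR 4 was not the high CTR library of Ccne2. CTR 1 and CTR 2 were its high CTR libraries, at 14.4 and 13.5 CPM, and CTR 3 and CTR 4 were at 10.3 and 10.6. For Ccne2, 17.4% of the exon bases overlap Ints8 on the opposite strand.

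Among the 23 genes of mitosis, 12 had a positive value (52.2%, beside 49.6% of all genes tested), and the median log2 fold change was 0.03. Of the 23, 1 passed the test (4.35%, beside 23.7%), and 3 did with neighbouring mice as pairs (beside 27.6%). Bub1 (ENSMUSG00000027379.13, GRCm38 chromosome 2, 127801122 to 127831865), a kinase of the spindle checkpoint, was at 11.2, 11.2, 10.9 and 10.4 CPM in CTR 1 to 4 and at 13.5, 13.9, 13.7 and 18.3 in SKO 1 to 4. All SKO libraries lay above all CTR libraries, and SKO 4 lay well above the other 3. The means were 10.9 ± 0.393 and 14.8 ± 2.32 CPM, a rise of 1.36-fold (log2 0.44, SE 0.12, adjusted p = 0.0237). Without SKO 4 the value was 0.33 (adjusted p = 0.0518), and the call was also lost without CTR 2, CTR 3 or CTR 4 (adjusted p 0.0517 to 0.0562). The related checkpoint gene Bub1b did not follow it, at 25.8 ± 2.76 and 24.0 ± 3.38 CPM (log2 -0.10, adjusted p = 0.546).

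Cdk1, the kinase that drives entry into mitosis, narrowly missed the threshold. It was at 35.8, 28.0, 34.1 and 36.6 CPM in CTR 1 to 4 and at 46.1, 46.4, 33.9 and 53.5 in SKO 1 to 4. SKO 3 lay inside the CTR range and the other 3 SKO libraries lay above it. The log2 fold change was 0.42 (SE 0.14, adjusted p = 0.0501), and it was 0.53 without SKO 3 (adjusted p = 0.0080). With neighbouring mice as pairs it was 0.41 and passed (adjusted p = 0.0344). Its cyclin partners had values nearer 0, at 0.05 for Ccna2, 0.11 for Ccnb1 and 0.11 for Ccnb2, with adjusted p of 0.775, 0.643 and 0.529.

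**Figure D2:**
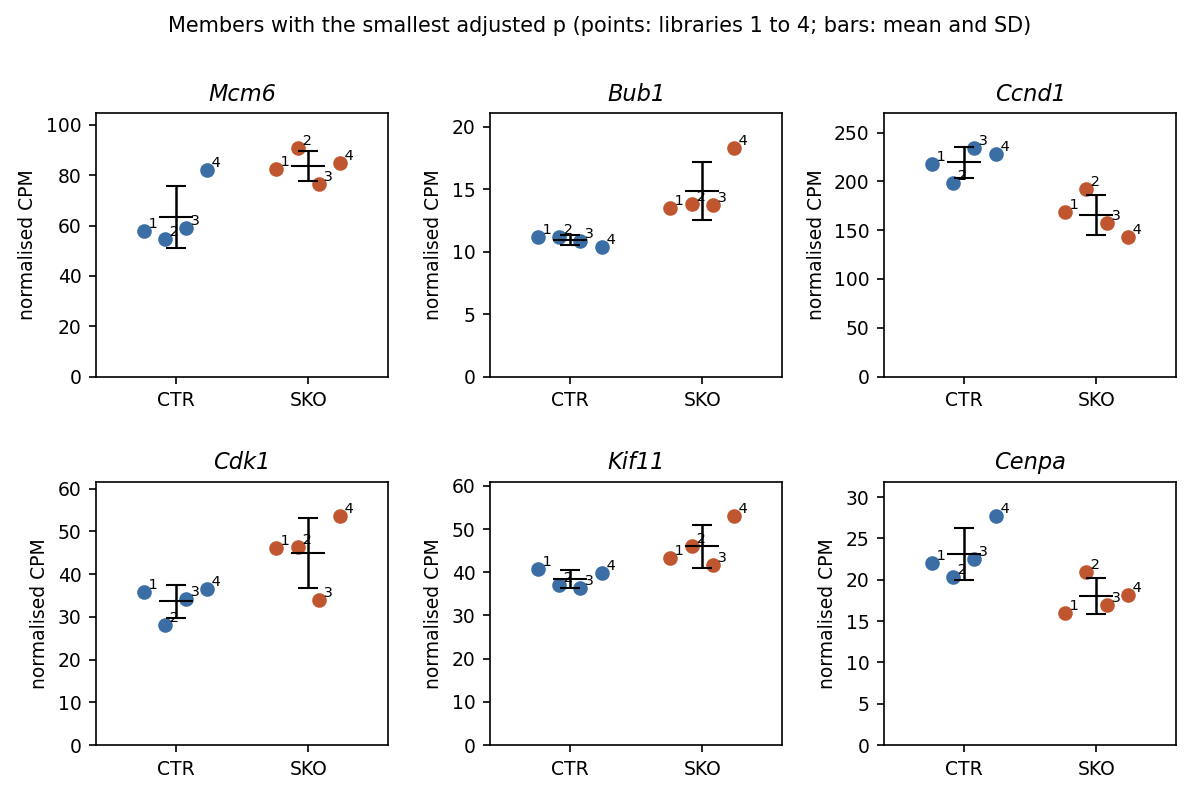
Normalised CPM (y axis, from 0) of 6 genes in each library, CTR in blue and SKO in orange, with the library number beside each point and bars for the mean and SD. In Bub1, Kif11 and Ccnd1 the 2 groups do not overlap, while CTR 4 of Mcm6, SKO 3 of Cdk1 and SKO 2 of Cenpa lie within the range of the other group.

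No kinesin gene of the spindle or midzone passed the test on all 8 libraries without pairs. Kif11, the motor that pushes the spindle poles apart, was at 40.7, 37.1, 36.3 and 39.8 CPM in CTR 1 to 4 and at 43.2, 46.2, 41.6 and 52.9 in SKO 1 to 4, with no overlap (log2 0.26, SE 0.09, adjusted p = 0.0628). Kif11 passed without SKO 3 (log2 0.30, adjusted p = 0.0352) and with neighbouring mice as pairs (log2 0.25, adjusted p = 0.0488). Kif23 and Kif20a, which act in the midzone and in cytokinesis, had values of 0.03 and -0.001. The interval of Kif23 ran from -0.20 to 0.26. The microtubule-associated genes Tpx2 and Nusap1 had 0.17 and -0.07.

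Cenpa, Cenpe and Cenpf, 3 genes of the centromere and kinetochore, had negative values, and none of them passed. Other genes whose products act there went both ways, with log2 values of 0.44 for Bub1, which passed, 0.27 for Birc5 and -0.10 for Bub1b. Cenpa, the centromere histone, was at 22.02, 20.3, 22.5 and 27.7 CPM in CTR 1 to 4 and at 16.04, 20.9, 16.98 and 18.2 in SKO 1 to 4. Only SKO 2 lay above the lowest CTR library. The log2 value was -0.36 (SE 0.12, adjusted p = 0.0537). Cenpa passed without CTR 2 (log2 -0.42, adjusted p = 0.0498) and without SKO 2 (log2 -0.43, adjusted p = 0.0414). The outer kinetochore genes Cenpe and Cenpf had -0.13 and -0.15, with adjusted p of 0.425 and 0.281.

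The kinases Aurka, Aurkb and Plk1, which build the spindle and correct its attachments, gave log2 values of 0.12, -0.01 and -0.06. Birc5, which carries Aurora B to the centromere, was at 18.2 ± 2.61 CPM in CTR and 21.8 ± 4.94 in SKO (log2 0.27, adjusted p = 0.272). Cdc20 and Ube2c, activator and ubiquitin conjugating enzyme of the anaphase-promoting complex, had 0.09 and 0.16. Foxm1, an activator of late cell cycle genes, was at 31.3, 29.1, 28.8 and 27.6 CPM in CTR 1 to 4 and at 24.7, 27.5, 26.8 and 26.1 in SKO 1 to 4. Its groups did not overlap, though CTR 4 and SKO 2 differed little, and the value was -0.15 (SE 0.07, adjusted p = 0.164).

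Neither of the common proliferation markers Mki67 and Top2a passed the test. Mki67, which coats mitotic chromosomes, was at 216, 215, 218 and 228 CPM in CTR 1 to 4 and at 171, 183, 219 and 196 in SKO 1 to 4. SKO 3 alone lay in the CTR range, and the value was -0.19 (SE 0.08, adjusted p = 0.126). Without SKO 3 it was -0.26 and passed (adjusted p = 0.0272). Top2a, the topoisomerase that untangles sister chromatids, was at 111 ± 9.59 and 109 ± 9.70 CPM (log2 -0.03, interval -0.23 to 0.16, adjusted p = 0.806).

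Of the D cyclins, which link growth signals to G1, Ccnd1 was lower and Ccnd2 did not pass the test. Ccnd1 (ENSMUSG00000070348.4, GRCm38 chromosome 7, 144929931 to 144939925) was at 218, 198, 234 and 228 CPM in CTR 1 to 4 and at 169, 192, 157 and 143 in SKO 1 to 4. All SKO libraries lay below all CTR libraries. The means were 220 ± 15.9 and 165 ± 20.7 CPM, 1.33-fold lower in SKO (log2 -0.41, SE 0.10, adjusted p = 0.0148), and the call held when any single library was left out (highest adjusted p 0.0432). Of its exon bases, 23.4% overlap LTO1 on the opposite strand. Ccnd2 was at 184, 323, 288 and 209 CPM in CTR 1 to 4 and at 255, 391, 327 and 310 in SKO 1 to 4 (log2 0.36, SE 0.18, adjusted p = 0.186). Its spread within CTR was wide, from 184 to 323, and the groups overlapped. SKO was the higher library in 4 of 4 pairs of neighbouring mice, and with these as pairs Ccnd2 passed (log2 0.38, adjusted p = 0.0157). SKO was also higher in 4 of 4 pairs for Mcm4, Mcm5, Uhrf1, E2f1, Ccne2 and Cdc20, which did not pass with pairs.

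Per kilobase of exon, Ccnd1 had the highest level in CTR, at 46.6 CPM per kb, followed by Ccnd2 at 26.7 and Mki67 at 21.8. In SKO the levels were 35.1 for Ccnd1, 34.1 for Ccnd2 and 19.1 for Mki67. Cdc6 had the lowest level, 0.986 in CTR and 0.907 in SKO. These values use the summed length of all annotated exons of a gene.

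Groups without overlap occurred in 4 of 42 genes, Bub1 and Kif11 with SKO above and Foxm1 and Ccnd1 with SKO below, beside 26.2% of all genes tested. At an unadjusted p under 0.05, 7 of the 42 passed, against 5877 of 15638 genes.

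**Figure D3:**
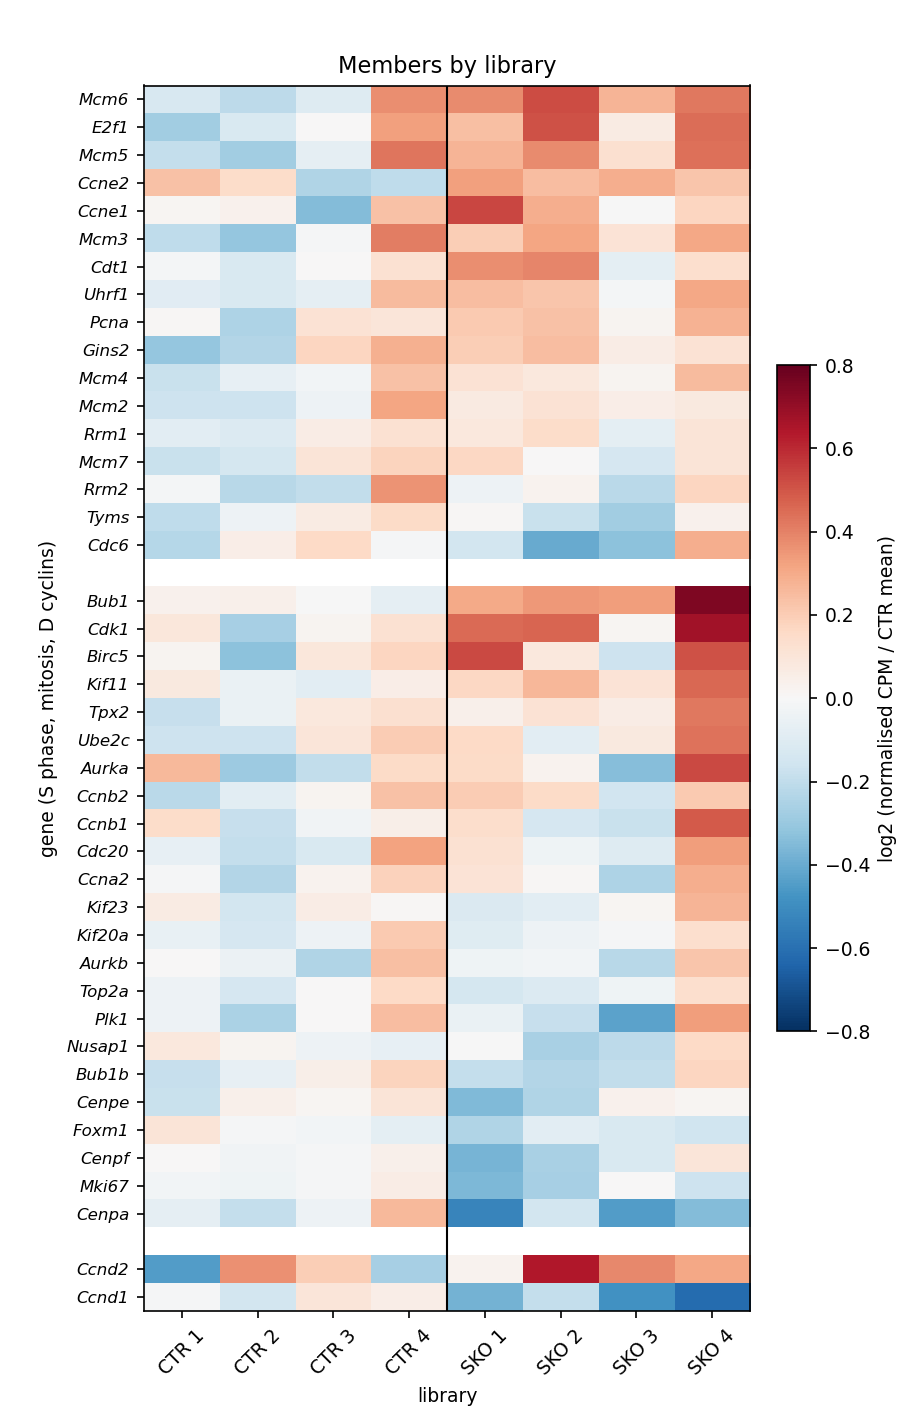
Colour gives the log2 ratio of each library to the CTR mean for the 42 genes (rows, in the order of their log2 fold change within S phase, mitosis and D cyclins) in 8 libraries (columns). CTR 4 is red in most rows, and SKO 4 in most S phase and mitosis rows.

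Much of the spread ran along libraries. CTR 4 was the highest CTR library in 14 of 17 S phase genes and 16 of 23 mitosis genes, 30 of 42 in all (71.4%), compared with 26.5% of all genes tested. SKO 4 was the highest SKO library in 18 of 23 mitosis genes, and SKO 3 the lowest in 15 of 17 S phase genes. Over the 42, SKO 3 was lowest in 25 (59.5%), compared with 30.0% of all genes. The median coefficient of variation of S phase genes was 16.01% in CTR and 9.01% in SKO, and that of mitosis genes 10.7% and 13.5%. Over all genes tested it was 11.2% and 12.4%. The genes of one list share their libraries and are not separate replicates of this pattern.

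Sums over the lists show the same libraries. The 17 S phase genes summed to 532, 517, 570 and 687 CPM in CTR 1 to 4 and to 654, 672, 585 and 680 in SKO 1 to 4. CTR 1, CTR 2 and CTR 3 lay below all SKO libraries, and CTR 4 lay above them. The 23 mitosis genes summed to 846, 801, 851 and 927 CPM in CTR and to 806, 812, 820 and 957 in SKO, and the groups overlapped. The ratio of the S phase sum to the mitosis sum was 0.628, 0.646, 0.669 and 0.741 in CTR 1 to 4 and 0.812, 0.828, 0.713 and 0.711 in SKO 1 to 4. Its means were 0.671 ± 0.0498 and 0.766 ± 0.0626. SKO 1 and SKO 2 exceeded all CTR libraries, and SKO 3 and SKO 4 lay between CTR 3 and CTR 4. The further replication and mitosis genes described below did not repeat this balance. Their replication sums were 1307 ± 85.3 CPM in CTR and 1284 ± 70.3 in SKO, and their mitosis sums 1379 ± 83.4 and 1456 ± 130 CPM.

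**Figure D4:**
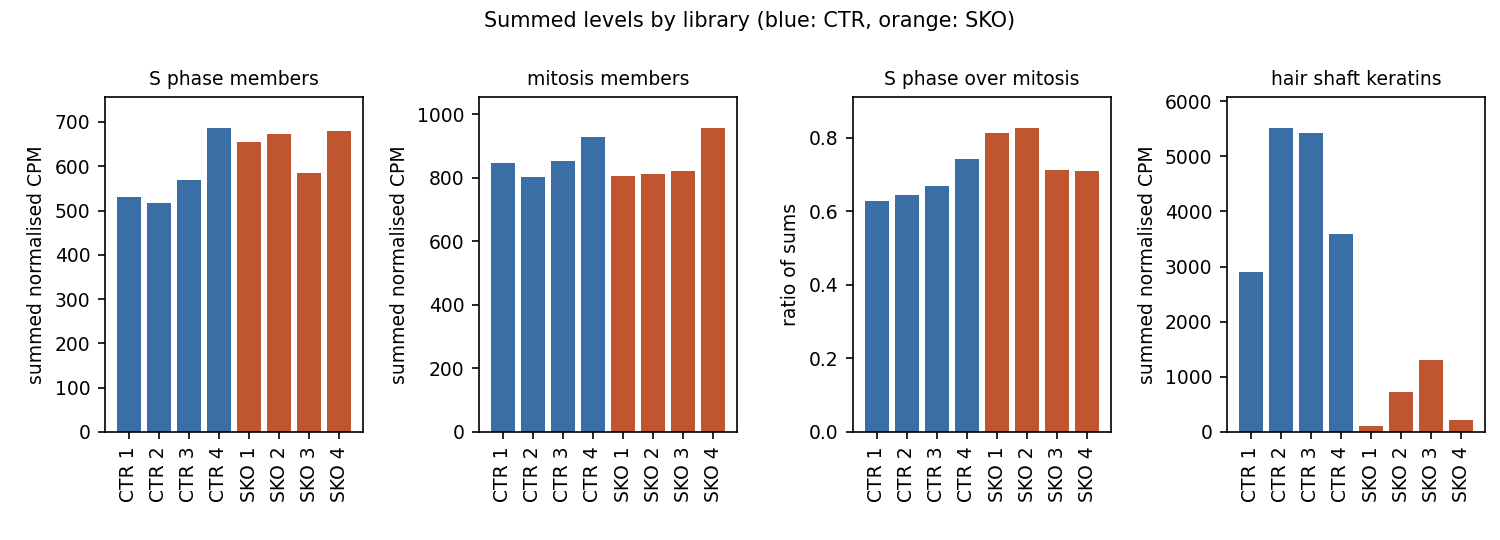
Bars give, for each library, summed normalised CPM of the 17 S phase genes, of the 23 mitosis genes, their ratio, and the summed CPM of 8 hair shaft keratins, CTR in blue and SKO in orange. CTR 4 has the highest S phase sum at 687 CPM, and all SKO libraries are lower than all CTR libraries in hair shaft keratins.

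Single libraries moved the balance of the mitosis genes. Without SKO 4, 7 of 23 mitosis genes had a positive value, and without CTR 4, 16 of 23. For the S phase genes the same counts were 14 and 15 of 17. The 6 MCM genes stayed positive under each of the other scalings tried (library totals, DESeq2 size factors and upper-quartile factors), and 14 or 15 of the 17 S phase genes did. Of the 6 MCM genes, 5 were positive without CTR 1, CTR 2 or SKO 1, and 1 when the fit included Xist.

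Further genes of the same processes were taken from lists that hold none of the 42. Of 51 further replication genes, 2 were higher and 3 lower, with a median log2 fold change of 0.01. A positive value was found in 26 of the 51 (51.0%, beside 49.6% of all genes tested). Dnmt1, which copies methylation onto new DNA, fell from 108 ± 7.82 to 73.9 ± 1.51 CPM (log2 -0.55, adjusted p = 0.000929). Cdc7, the kinase that fires origins, and Pole, the leading strand polymerase, had log2 values of -0.39 and -0.38 (adjusted p = 0.0193 and 0.0247), and the polymerase delta subunit Pold3 had 0.35 (adjusted p = 0.0133). Leaving out SKO 1 or any CTR library but CTR 3 ended the call of Pole (adjusted p 0.056 to 0.0665), and leaving out CTR 1 did so for Cdc7 (adjusted p = 0.0511). The remaining call, Orc5 of the origin recognition complex, was higher.

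Of 65 further mitosis genes, 7 were higher and 4 lower, with a median of 0.10. A positive value was found in 45 of the 65 (69.2%, beside 49.6% of all genes tested). The lower ones were Cenpi of the inner kinetochore (log2 -0.88, adjusted p = 0.00339), Gas2l3 (-0.71, adjusted p = 0.00298), Espl1, the separase that cuts cohesin (-0.68, adjusted p = 0.0101), and Cdkn3. The higher ones included Spc24 of the outer kinetochore, from 7.90 ± 0.556 to 11.3 ± 1.52 CPM (log2 0.51, adjusted p = 0.0164). The rest that were higher were Cenpk and Cenpn, like Cenpi of the inner kinetochore, Zwilch, Cdca8, Ncaph and Ncapd2. Called genes of the kinetochore thus went both ways. The shares called were 9.80% of the replication genes and 16.9% of the mitosis genes, beside 23.7% over all genes.

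**Figure D5:**
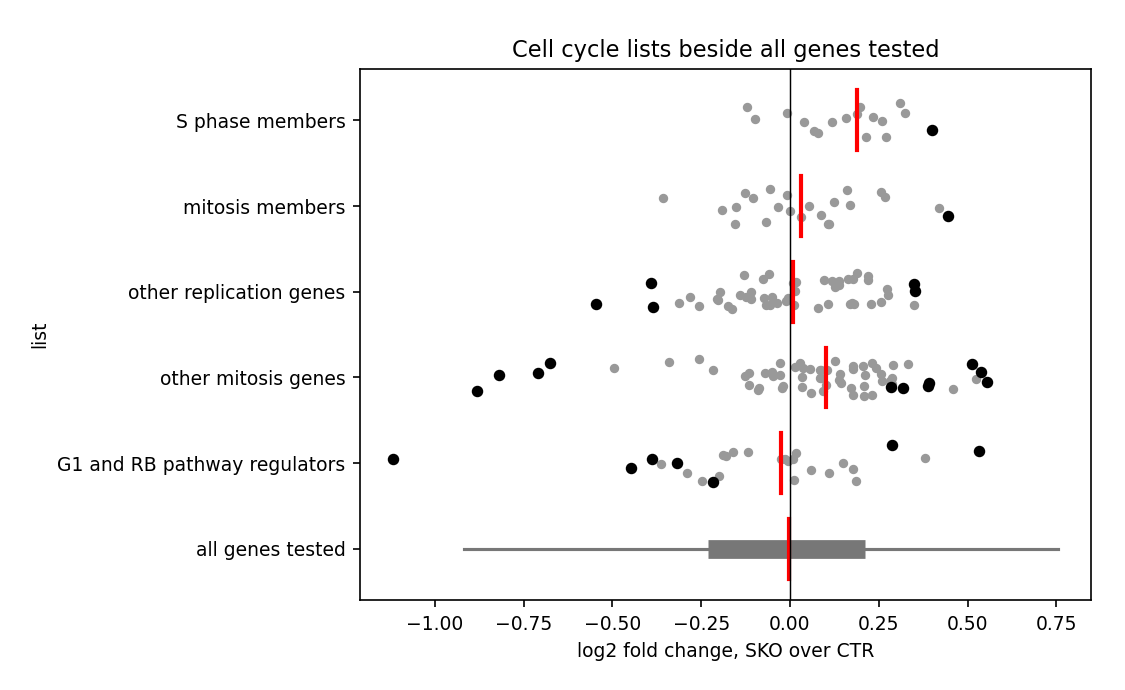
Log2 fold change, SKO over CTR (x axis), of each tested gene of 5 lists (rows), black where the adjusted p is under 0.05 and grey otherwise, with the list median in red. The bottom row gives all genes tested, with a thin line from the 5th to the 95th percentile (-0.92 to 0.75) and a thick bar from the 25th to the 75th (-0.23 to 0.21).

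Of 27 genes of the retinoblastoma pathway and its surroundings, 2 were higher and 5 lower (25.9%, beside 23.7% over all genes), with a median of -0.02. Ccnd3, another D cyclin, rose from 38.2 ± 3.78 to 55.3 ± 1.52 CPM (log2 0.53, adjusted p = 0.00215) while Ccnd1 fell. Cdk6, a partner of the D cyclins, had -0.39 (adjusted p = 0.00597), and the E2F activator E2f3 had -0.45 (adjusted p = 0.00465). E2f7, a repressor of E2F targets, fell from 7.19 ± 1.78 to 3.30 ± 0.961 CPM (log2 -1.12, adjusted p = 0.00984). The remaining calls were Rb1, the retinoblastoma gene itself, and Fbxw7, both lower, and Myc, which was higher.

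Of 7 CDK inhibitors, Cdkn2a was higher and Cdkn1c lower (28.6%, beside 23.7% over all genes). Cdkn2a, the locus of INK4A and ARF, was at 0.0512, 0.192, 0.0619 and 0.0941 CPM in CTR 1 to 4 and at 2.78, 10.3, 2.25 and 1.16 in SKO 1 to 4, without overlap (adjusted p = 0.00307). Its CTR values rest on a few reads per library. The gene was kept for testing only through its SKO libraries, so the test and the lack of overlap depend on that. Cdkn1c, which encodes p57, fell from 1.59 ± 0.370 to 0.634 ± 0.186 CPM (adjusted p = 0.00847).

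Markers of other cells moved with the groups, and their part in the values above was not tested. Beside the marker counts in this paragraph and the next, 11.5% of all genes tested were higher and 12.2% lower in SKO. All 8 hair shaft keratins were lower in SKO, with sums of 2896 to 5520 CPM in CTR and 107 to 1313 in SKO. Of 12 tested genes of the hair matrix and shaft precursors, which include dividing cells, 8 were lower (sums 2210 to 2932 and 1382 to 2416 CPM). Of 10 basal keratinocyte genes, 4 were lower (sums 19111 to 20983 and 17460 to 18387 CPM), while spinous keratinocyte genes, with 2 of 6 higher and 1 lower, summed to 23378 to 26037 and 46555 to 63327 CPM. The spinous sums are mostly Krt1 (2488 ± 430 and 18366 ± 4854 CPM) and Krt10 (15650 ± 611 and 31131 ± 3704 CPM). Dsg1a was lower, and Dsc1, Krtdap and Sbsn did not pass.

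Several immune markers moved too. T cell genes summed to 8.55 to 13.2 CPM in CTR and 15.5 to 28.1 in SKO (4 of 5 tested genes higher, 5 others too low to test). Of these 4, Cd247, Cd3e and Trdc were kept for testing only through their SKO libraries, so their calls and the count of 4 depend on that. Trbc2, the remaining call, was well expressed in both groups. Langerhans and dendritic cell genes summed to 284 to 353 and 389 to 547 CPM (6 of 8 higher). Neutrophil genes summed to 7.43 to 26.2 and 21.9 to 308 CPM (2 of 3 tested genes higher, of 6 listed, the rest too low to test). The 2 were S100a8 and S100a9, which make up most of the SKO sum, while Mpo, an enzyme of neutrophil granules, was at 4.74 ± 4.01 CPM in CTR and 1.48 ± 0.885 in SKO (log2 -1.65, adjusted p = 0.0604). Sebocyte genes summed to 4196 to 5578 and 6567 to 9056 CPM (5 of 7 higher), and melanocyte genes to 249 to 364 and 332 to 556 CPM (4 of 8 higher, 1 lower). The sebocyte sums are mostly Scd1 (3458 ± 501 and 5818 ± 879 CPM), and Fasn and Awat2 did not pass. Macrophage and monocyte sums were 14.7 to 20.01 and 19.96 to 23.8 CPM, fibroblast sums 33.8 to 52.7 and 17.7 to 56.1, and endothelial sums 1.37 to 3.03 and 1.00 to 2.06, and none of their tested genes passed by edgeR, also at an unadjusted p under 0.05. No marker gene was at 0 in all libraries.

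Xist, the RNA that coats the inactive X chromosome, was also lower in SKO, at 792 ± 153 CPM in CTR and 419 ± 114 in SKO, without overlap. It was well expressed in all 8 libraries, at 706, 994, 819 and 647 CPM in CTR 1 to 4 and at 330, 436, 574 and 337 in SKO 1 to 4. What lowers it in SKO was not tested. With its level as a further term in the fit, 77 genes in all were called and none of the 42 (9 at an unadjusted p under 0.05), and 3 of 17 S phase genes and 3 of 23 mitosis genes had a positive value. Ccnd1 then had a log2 value of -0.45 (adjusted p = 0.254). Since Xist itself separates the groups, the 2 terms are hard to tell apart in 8 libraries.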

How the data were processed

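Tail epidermis was separated with dispase, and poly-A RNA of 8 mice was sequenced as stranded libraries with single 75 bp reads, per the labels. The deposited values are raw read counts per Ensembl gene made by the authors. The submitters' processing notes name STAR 2.4.1d, featureCounts 1.4.6 and GRCm38 among tools and builds. The sources used here give no annotation release, strand setting or rule for multi-mapping reads, so reads of overlapping genes and of pseudogene copies could be assigned to either.

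Symbols and exon lengths came from GENCODE M21, where 46488 of 46983 identifiers matched. Counts were tested in edgeR 4.0.16 (R 4.3.3) with TMM factors, filterByExpr and the two-sided quasi-likelihood test on all 8 libraries, with Benjamini-Hochberg adjustment over 15638 genes and a threshold of 0.05. SE is the log2 fold change over the root of F, and intervals are 95%. CPM use TMM-scaled library sizes. Scripts were tested on simulated data. No 2 libraries of a group agreed within sampling noise. Promoter sequences are from RefSeq (GRCm38.p6). DESeq2 1.42.0, limma-voom 3.58.1, other scalings and filters, a robust fit, an Xist term (log2 of CPM plus 1) and leaving out each library were alternatives. A replicate block of neighbouring mouse identifiers was added after seeing the data. Deviations from the group means correlated at 0.323, 0.431, 0.173 and 0.237 in the 4 neighbouring pairs and at -0.299 to 0.243 in the other combinations, where SKO 3 correlated more with CTR 2 (0.243) than with its neighbour. All members were described, and up to 4 called genes with the smallest p from each other list were given with values. The members and lists were chosen with earlier results of these data known.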

Additional observations from a re-analysis of the deposited data

Results flagged for a closer look

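Of 118 groups of 4 libraries examined (84 of them of the 42 genes), 6 held a library far from the other 3, where chance gives about 1 in 20. In CTR 4, Mcm6 stood at 81.95 CPM (next library 59.08) and Uhrf1 at 49.05 CPM (next 39.16). In SKO 4, Bub1 stood at 18.32 CPM (next 13.86), Bub1b at 29.07 CPM (next 22.59) and the sum of the 23 mitosis genes at 957.3 CPM (next 819.8). Spc24 was low in CTR 2, at 7.073 CPM (next 8.105).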

How the results depend on the processing

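With the replicate block, added after seeing the data, mitosis genes higher were 3 (Bub1, Cdk1 and Kif11) and Ccnd2 passed, and no other call among the 42 genes changed. The 3700 calls over all genes fell to 77 with the Xist term. S phase genes higher (1) were 0 with the Xist term and 0 to 4 when each library was left out. Mitosis genes higher (1) were 2 with library totals, DESeq2 size factors, upper-quartile factors, no count filter, a stricter count filter, the robust fit and DESeq2, each time by adding Cdk1; they were 0 with the Xist term and 0 to 3 when each library was left out. Mitosis genes lower (0) were 1, Cenpa, with the robust fit and DESeq2, and 0 to 1 when each library was left out. The median log2 fold change went from 0.19 to -0.13 for S phase genes and from 0.03 to -0.20 for mitosis genes with the Xist term. The cause of these shifts was not tested. Over 18 alternatives, Ccnd1 was called in 17, Bub1 in 13, Mcm6 in 11, Cdk1 in 9, Cenpa in 4 and Kif11 in 2. Ccnd1, Bub1 and Mcm6 kept their sign under all 18. Of all 42 signs, 22 changed with the Xist term and 0 to 5 under each other alternative. With 4 mice per group, differences well under 1.5-fold can go uncalled.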
